A study of Homo sapiens and Mus musculus with 10 samples.

Results

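Mitochondria fold, repair and degrade their own proteins with a small set of nuclear-encoded chaperones and proteases, and 10 of these genes are described here: LONP1, HSPA9, HSPD1, HSPE1, SPG7, TRAP1, DNAJA3, CLPP, HTRA2 and YME1L1. Members were the rows of both HEK293T count tables whose gene symbol equalled one of these names, which gave 10 rows in each table among 16619 symbols listed in either. For 8 members the 2 tables counted the same transcript. HSPD1 and YME1L1 were counted on another transcript in each table and are described table by table. RNA of HEK293T, a human embryonic kidney line, was sequenced after removal of ribosomal RNA in 7 libraries. A stress set held 1 library each of wild-type (WT) cells after mock treatment, 24 h without glucose (glucose deprivation, GD) or 6 h in 300 nM thapsigargin (TG). Thapsigargin stops calcium uptake by the endoplasmic reticulum (ER) and so causes ER stress. A genotype set held 1 library each of mock and GD from WT cells and from UFD1s-deficient cells, which lack a form of UFD1, a cofactor of the ATPase VCP that extracts ubiquitinated proteins. The sources used here do not say how the deficient cells were made or whether they are 1 clone, and no other allele or agent is named for any group. The mouse libraries of the series were not used here.

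Each library held 11461365 to 19024327 reads counted on transcripts. Both WT conditions had 2 libraries, 1 in each set, and the sets differed from each other by far more than sampling noise: chi-square per degree of freedom was 73.8 for the WT mock libraries over 10328 transcripts, and 17.0 for deficient against WT mock inside the genotype set. Nothing in the labels says that libraries came from separate cultures, so p-values measure only how far these libraries differ, which may be technical. Of 10 markers named for HEK293T (keratins, neurofilaments, VIM, CDH2 and others), 9 were listed in either set, with a summed level of 1190 to 1976 CPM. VIM had the most reads, 11447 to 16304 a library, while KRT18 had 8 to 37. KRT8 had 0 to 2 reads in the stress set and 28 to 77 in the genotype set. PAX2 was not listed, and NEFM was listed only in the stress set, with 4 to 8 reads. None of 4 blood markers was listed, and ALB, the hepatocyte marker listed, had at most 5 reads. Of 3 fibroblast markers COL1A1 had 168 to 846 reads in every library, COL1A2 at most 2 and DCN was not listed. The summed fibroblast level was 28.9 to 63.1 CPM in mock, 15.4 to 32.7 in GD, 19.9 to 51.3 in WT of the genotype set and 32.7 to 63.1 in deficient cells, and its part in the results was not tested. The 2 endothelial markers had at most 10 reads each. In bulk RNA, fewer cells of a type and less RNA per cell cannot be told apart.

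Most mitochondrial proteins are made in the cytosol and enter the organelle unfolded. HSPA9 (mortalin, the mitochondrial HSP70) pulls them in and folds them with the J-domain protein DNAJA3, HSPD1 (HSP60) and HSPE1 (HSP10) form the chamber in which many of them fold, and TRAP1 is the mitochondrial HSP90. LONP1 and the ClpXP subunit CLPP are matrix proteases that degrade damaged or unassembled proteins, SPG7 (paraplegin) and YME1L1 are ATP-dependent proteases of the inner membrane, and HTRA2 is a serine protease of the intermembrane space. When unfolded protein accumulates in mitochondria, cells are known to raise some of these genes through ATF4, CHOP (encoded by DDIT3), ATF5 and HSF1.

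Promoter windows are shown for LONP1 and HSPA9, which rose in GD, for HSPE1, which fell, and for HSPD1, whose gene starts head to head with HSPE1. Each window spans 250 bases before to 50 bases after a RefSeq gene start on GRCh38.p14, written 5′ to 3′ on the gene's strand. Capitals mark the E-box CACGTG and the heat shock element core TTCNNGAA wherever a script found them. The LONP1 window lies at chr19:5720097-5720396 (minus strand), HSPA9 at chr5:138575352-138575651 (minus), HSPE1 at chr2:197500129-197500428 (plus) and the HSPD1 window at chr2:197499791-197500090 (minus).
LONP1: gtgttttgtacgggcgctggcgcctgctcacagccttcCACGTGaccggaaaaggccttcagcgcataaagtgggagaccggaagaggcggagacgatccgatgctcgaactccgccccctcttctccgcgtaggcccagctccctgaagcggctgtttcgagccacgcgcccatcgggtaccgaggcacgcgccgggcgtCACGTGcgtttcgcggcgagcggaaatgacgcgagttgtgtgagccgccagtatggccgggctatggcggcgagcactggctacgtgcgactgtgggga
HSPA9: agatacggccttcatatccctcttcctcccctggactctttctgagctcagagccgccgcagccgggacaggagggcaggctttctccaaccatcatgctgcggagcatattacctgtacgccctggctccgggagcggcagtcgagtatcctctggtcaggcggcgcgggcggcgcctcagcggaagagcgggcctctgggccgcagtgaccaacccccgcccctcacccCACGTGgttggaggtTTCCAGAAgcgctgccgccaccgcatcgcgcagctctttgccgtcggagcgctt
HSPE1: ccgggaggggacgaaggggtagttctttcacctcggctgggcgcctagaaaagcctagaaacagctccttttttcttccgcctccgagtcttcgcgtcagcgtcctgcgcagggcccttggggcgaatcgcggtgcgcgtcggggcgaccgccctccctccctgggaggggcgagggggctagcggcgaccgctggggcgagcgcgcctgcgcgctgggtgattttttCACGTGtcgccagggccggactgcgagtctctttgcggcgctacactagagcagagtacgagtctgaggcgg
HSPD1: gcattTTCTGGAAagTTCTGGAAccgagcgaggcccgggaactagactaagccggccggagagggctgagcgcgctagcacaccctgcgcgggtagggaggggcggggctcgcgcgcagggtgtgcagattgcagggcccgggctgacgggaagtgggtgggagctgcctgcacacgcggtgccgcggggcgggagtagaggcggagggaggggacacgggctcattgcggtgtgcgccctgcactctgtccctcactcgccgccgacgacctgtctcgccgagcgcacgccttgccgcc
The LONP1 window printed held 2 E-boxes and its second window, at chr19:5720403-5720702 on the minus strand, none of the motifs searched. HSPE1 held 1 E-box, and HSPA9 held 1 E-box followed closely by 1 heat shock element. A second HSPD1 window, at chr2:197500225-197500524 on the minus strand, shares 204 bases with the HSPE1 window and holds the same E-box, while the HSPD1 window printed above holds 2 heat shock elements near its 5′ end. RefSeq gave 12 windows for 8 members. Of these windows 4 held an E-box (1 each of LONP1, HSPA9, HSPE1 and HSPD1, the last 2 sharing a single site), against 7.26% of all 35116 windows, and 2 held a heat shock element (HSPA9 and HSPD1), against 7.74%. The ATF4 and CHOP composite site, searched as TGATGNAA, was in none of the 12 and in 3.62% of all windows. The ER stress element, searched as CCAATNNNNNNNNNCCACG, whose last letters can overlap an E-box, was in none of the 12 and in 0.0769% of all. Both strands were searched for all 4 motifs. These matches describe letters and are not binding sites, and E-boxes occurred both in genes that rose and in one that fell.

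Levels are given as scaled CPM, a count scaled to the library's reads on the transcripts of both tables and corrected by trimmed-mean (TMM) factors. Each level is that of the transcript counted and not of the whole gene. Lengths were those of matched GENCODE transcripts, whose ends can differ from those of the RefSeq transcript counted. Per kilobase, the TRAP1 transcript stood highest among the members in WT mock, at 196.7 and 233.8 scaled CPM per kb in the stress and genotype sets. HSPA9 followed at 161.7 and 143.7, then HSPE1 at 113.1 and 99.7, and the ranges of these 3 did not overlap. CLPP (33.2 and 75.0) and LONP1 (25.3 and 46.4) came next, and their ranges overlapped. SPG7 stood at 17.8 and 20.7, HTRA2 at 11.1 and 8.72, and DNAJA3 at 2.96 and 3.03. In the genotype set HSPD1 had 32.9 and YME1L1 2.07 scaled CPM per kb. Without division by length, HSPA9 lay above TRAP1 in WT mock, at 764.2 and 679.1 against 451.7 and 536.7 scaled CPM. The order of HSPA9 and TRAP1 thus depends on the lengths used. In GD the order per kb changed at the top in the stress set, where HSPA9 (264.8) passed TRAP1 (215.3). LONP1 passed HSPE1 in both GD libraries of the genotype set.

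**Figure D1:**
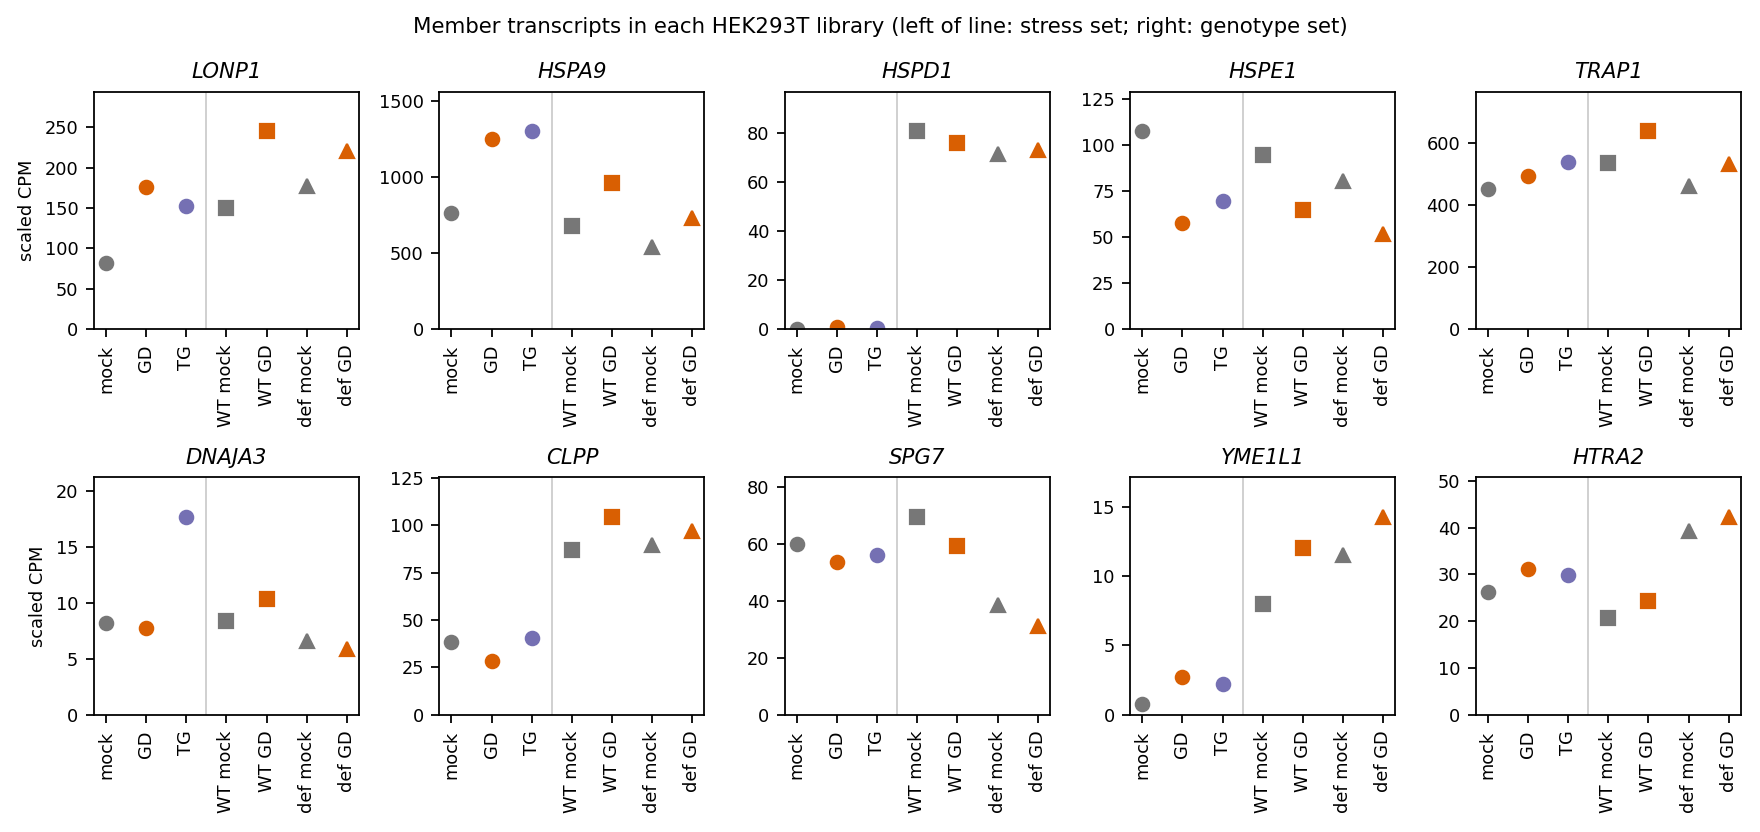
Level of each member's transcript in the 7 HEK293T libraries, 1 point a library, in scaled CPM on a linear axis that starts at 0, with the stress set left of the line and the genotype set (WT squares, UFD1s-deficient triangles) right of it. LONP1 and HSPA9 were higher and HSPE1 lower in GD than in the mock library beside it, SPG7 was lowest and HTRA2 highest in the deficient cells, and HSPD1 and YME1L1 were counted on different transcripts left and right of the line.

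The first comparison asked how glucose deprivation changes these transcripts. The protease LONP1 and the HSP70 HSPA9 rose, the co-chaperonin HSPE1 fell, and the remaining 5 members tested in all 6 libraries did not pass the test. Calls used edgeR's quasi-likelihood test over 10368 transcripts at an adjusted p under 0.05. Among the 8 tested members, 2 were called higher and 1 lower, against 9.75% of all transcripts called higher and 11.1% called lower. The median log2 change of the 8 was 0.11, against −0.02 over all transcripts.

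LONP1 had 81.9, 150 and 177.3 scaled CPM in stress-set WT mock, genotype-set WT mock and deficient mock, and 175.6, 244.8 and 220.1 in the GD libraries in the same order. Each GD library stood above its own mock library, although the stress-set GD library lay just under deficient mock. The fitted change of LONP1 was a log2 value of 0.70 with an SE of 0.13 over the 3 pairs (edgeR adjusted p = 0.0072). Reads rose 2.15-fold in the stress set (95% interval 2 to 2.3, counting error only, as for all such intervals), 1.63-fold in genotype-set WT (1.54 to 1.73) and 1.24-fold in deficient cells (1.17 to 1.31).

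The 3 ratios of LONP1 therefore differed beyond counting error. Between the sets, the GD change over WT and deficient cells of the genotype set was below that of the stress set by 0.59 on the log2 scale (estimate −0.59, SE 0.14, edgeR adjusted p = 0.0070; DESeq2 adjusted p = 0.0871). LONP1 was also 1.83-fold higher in the WT mock library of the genotype set than in that of the stress set, and 1.39-fold higher in WT GD. Between genotypes, the difference in GD change was estimated at −0.59 (SE 0.26), with an unadjusted p of 0.0503 and an adjusted p of 1 in edgeR. That estimate sets the deficient pair (log2 ratio 0.31) against the WT pairs of both sets (1.10 in the stress set, 0.71 in the other). The stress-set pair thus enters the estimate by genotype, and the deficient pair enters the estimate by set. These estimates therefore do not separate set from genotype. A difference between genotypes inside the genotype set alone was not tested. No transcript was called for the GD by genotype interaction (0% of 10368), by edgeR or by DESeq2, with 123 and 22 transcripts at an unadjusted p under 0.05.

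HSPA9 was the member with the most reads. Its level was 764.2, 679.1 and 543.0 scaled CPM in stress-set mock, genotype-set WT mock and deficient mock, and 1252, 957.6 and 731.9 in the matching GD libraries. It was higher in GD in all 3 pairs, by 1.64-fold (1.60 to 1.68), 1.41-fold (1.37 to 1.45) and 1.35-fold (1.31 to 1.39), while the mock and GD ranges overlapped because deficient GD lay under stress-set mock. The fitted change was 0.55 (SE 0.09, edgeR adjusted p = 0.0040). Without the deficient mock or the deficient GD library the estimate was 0.60, as with the 4 WT libraries alone. These fits rest on the same WT pairs, because the genotype term takes up the deficient library that is left. With the 4 WT libraries alone the edgeR adjusted p was 0.0597, so the call was lost without the deficient pair.

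HSPE1 encodes the lid of the HSP60 chamber. It had 107.5, 94.7 and 80.7 scaled CPM in the 3 mock libraries and 57.7, 64.7 and 51.9 in the GD libraries, so every GD library lay below every mock library. The ratios were 0.537 (0.490 to 0.589), 0.683 (0.622 to 0.749) and 0.643 (0.581 to 0.711). The fitted change was −0.69 (SE 0.11, edgeR adjusted p = 0.0028). For HSPE1 and LONP1, leaving out any 1 library kept the call and the direction. In each fit with 1 library left out, the other library of its pair no longer informed the GD change. Without set as a term none of the 3 members was called, with edgeR adjusted p from 0.138 for HSPE1 to 0.307 for LONP1.

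HSPD1, the chamber itself and the partner of HSPE1 across the shared start region, could be tested only in the genotype table, where it had 1030 and 846 reads in mock and GD of WT cells and 960 and 848 in those of deficient cells. Scaled levels were 80.7, 75.9, 71.6 and 72.9 CPM. These 4 values lay within 10 scaled CPM of each other, with GD over mock ratios of 0.941 (0.858 to 1.03) in WT and 1.02 (0.927 to 1.12) in deficient cells. The fit of that table alone gave −0.03 for GD (SE 0.09, edgeR adjusted p = 0.826), where 32.9% of 11975 transcripts were called in either direction. The HSPE1 ratios in the same 2 pairs were 0.683 and 0.643, and the difference between the partners was not tested. In the stress set another HSPD1 transcript was counted, with 2 reads in mock and 10 each in GD and TG. HSPD1 and HSPE1 are known to have processed pseudogenes, and how reads shared with them were counted is not given in the sources used here.

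**Figure D2:**
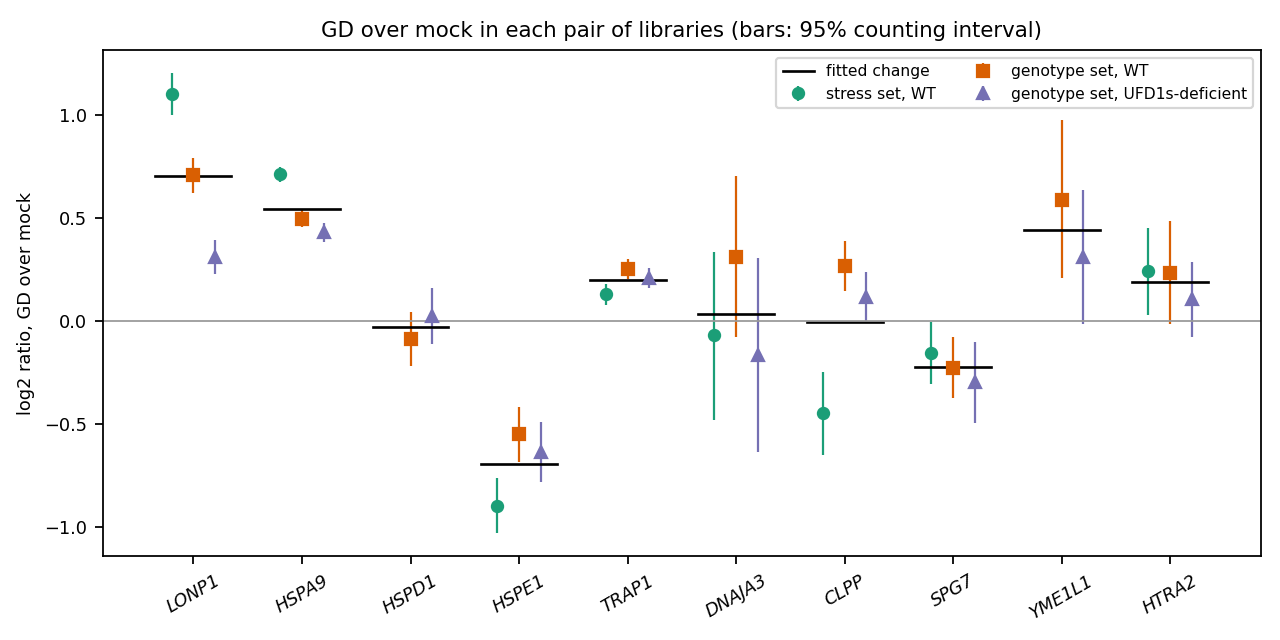
GD over mock for each member as a log2 ratio of scaled reads in each of the 3 pairs (points, with 95% counting intervals) and as fitted (black bars; for HSPD1 and YME1L1 from the genotype table alone). LONP1 and HSPA9 lie above 0 and HSPE1 below 0 in all 3 pairs, LONP1 is highest in the stress set (1.10) and lowest in deficient cells (0.31), and CLPP lies at −0.45 in the stress set and above 0 in the genotype set.

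Of the other chaperones, TRAP1 had 451.7, 536.7 and 463.1 scaled CPM in mock, and 494.4, 639.3 and 535.3 in the matching GD libraries. It was slightly higher in every pair, at 1.09-fold (1.06 to 1.13), 1.19-fold (1.15 to 1.23) and 1.16-fold (1.12 to 1.2), but was not called over all 6 libraries (0.20, SE 0.08, edgeR adjusted p = 0.125). In the genotype set alone it was called higher at 0.23 (edgeR adjusted p = 1.7e-05). That fit of 4 libraries leaves 1 residual degree of freedom and called 4040 of 10368 transcripts in either direction. DNAJA3 had 69 to 130 reads in the mock and GD libraries and ratios of 0.953, 1.24 and 0.893, each with an interval that included 1. Its fitted change was 0.03 (SE 0.22, edgeR adjusted p = 0.935) with TMM scaling and −0.05 with library totals alone.

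Of the other proteases, CLPP moved apart between the sets. It had 38.4 scaled CPM in mock and 28.2 in GD of the stress set, and 86.8, 104.4, 89.4 and 97.1 in genotype-set WT mock, WT GD, deficient mock and deficient GD. The ratio was 0.734 (0.637 to 0.843) in the stress set, 1.2 (1.11 to 1.31) in genotype-set WT and 1.09 (1 to 1.18) in deficient cells. The GD change of CLPP over both genotypes of the genotype set was larger than in the stress set by 0.64 (SE 0.17, edgeR adjusted p = 0.0191; DESeq2 adjusted p = 0.216), and the fit over all pairs gave −0.0032 (SE 0.14), which became 0.02 with RLE scaling. Together with LONP1, CLPP was 1 of 2 members called for a difference between the sets, where 10.4% of all transcripts were called. Its level in the genotype set was 2.26-fold (2.04 to 2.5) that of the stress set in WT mock and 3.71-fold (3.27 to 4.22) in WT GD.

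SPG7 had 59.9, 69.5 and 38.4 scaled CPM in mock, and 53.8, 59.4 and 31.3 in the matching GD libraries. It was lower in GD in each pair, with ratios of 0.898 (0.809 to 0.997), 0.855 (0.772 to 0.947) and 0.814 (0.71 to 0.933), and the fitted change of −0.22 was not called (SE 0.11, edgeR adjusted p = 0.170). HTRA2 gave ratios of 1.18, 1.18 and 1.08 and a fitted change of 0.19 that was not called either (SE 0.13, edgeR adjusted p = 0.318). In the genotype table YME1L1 had 102 and 134 reads in mock and GD of WT cells and 154 and 166 in those of deficient cells. Its fitted GD change in that table was 0.44 (SE 0.21, edgeR adjusted p = 0.114). The stress-set transcript of YME1L1 had 12 reads in mock, 30 in GD and 37 in TG.

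Thapsigargin was compared with the same mock library that served for GD in the stress set, with 1 library a condition and so no test. The rule of size asked for a ratio of 2 or more with a prior count of 5, and 50 or more reads in the higher library. By that rule 1 of the 8 members with enough reads was higher and none lower, against 4.75% higher and 3.36% lower of 9116 transcripts. The median log2 ratio of the 8 was 0.22, against 0.01 over the 9116.

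The member past the rule was DNAJA3, the J-domain partner of HSPA9. It had 8.19 scaled CPM in mock, 7.80 in GD and 17.7 in TG, from 130, 85 and 291 reads. The TG over mock ratio was 2.16 (1.75 to 2.68), and with library totals in place of TMM no member passed the rule. LONP1 was 1.87-fold higher in TG (1.75 to 2) and HSPA9 1.70-fold (1.66 to 1.74), against 2.15-fold and 1.64-fold in GD. HSPE1 was lower in TG as well, at a ratio of 0.650 (0.602 to 0.701) against 0.537 in GD. TRAP1 stood at 1.2 (1.16 to 1.23), HTRA2 at 1.13 (0.992 to 1.29), CLPP at 1.05 (0.938 to 1.17) and SPG7 at 0.934 (0.852 to 1.02), so for the last 3 the interval included 1. Set directly against the GD library, TG was 2.27-fold higher for DNAJA3 (1.78 to 2.93), 1.43-fold higher for CLPP (1.25 to 1.64), and 0.870 times as high for LONP1 (0.820 to 0.924). These ratios have no replicate check, and GD and TG share their mock library.

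**Figure D3:**
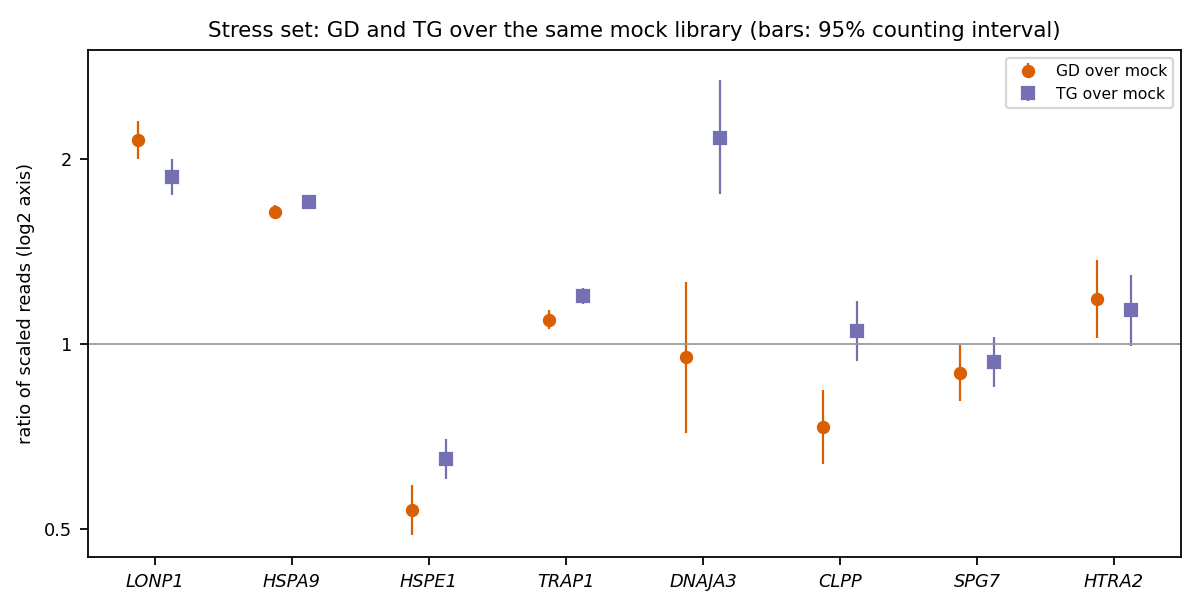
Ratio of scaled reads to the shared mock library on a log2 axis for GD and TG in the stress set, 1 library a condition, with 95% counting intervals. DNAJA3 stands at 2.16 in TG and 0.953 in GD, while LONP1 and HSPA9 lie above 1 and HSPE1 below 1 under both treatments.

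The next comparison asked which members differ between UFD1s-deficient and WT cells. The inner-membrane protease SPG7 was lower and the intermembrane-space protease HTRA2 higher, and the other 6 members of the fit were not called. That is 1 of 8 in each direction, where 0.781% of all transcripts were called lower and 0.328% higher. The median of the 8 was −0.25, against 0.01 over all transcripts, and 3 of the 8 (SPG7, TRAP1 and DNAJA3) lie on chromosome 16. No member lies on chromosome 7. LONP1 and CLPP lie on chromosome 19, HSPD1, HSPE1 and HTRA2 on chromosome 2, HSPA9 on chromosome 5 and YME1L1 on chromosome 10.

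SPG7 had 69.5 scaled CPM in WT and 38.4 in deficient mock, and 59.4 in WT and 31.3 in deficient GD. Both deficient libraries lay below all 5 WT libraries, whose lowest value was 53.8. The ratio of deficient to WT was 0.553 (0.495 to 0.617) in mock and 0.527 (0.462 to 0.599) in GD, and the fitted difference was −0.89 (SE 0.13, edgeR adjusted p = 0.0189). The call was lost without deficient mock (edgeR adjusted p = 0.317) or deficient GD (0.571), which leaves the deficient cells with 1 library. In the authors' deposited table the log2 ratio of SPG7 was −0.866 in mock and −0.924 in GD. Each of these compares 1 deficient with 1 WT library and comes from the same counts as the fit.

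The genes beside SPG7 were lower too. Of the 10 tested genes on each side of it in gene order on chromosome 16, 19 of 20 had a difference below 0, 9 were called lower and none higher, with a median of −0.78. The largest of these were the antisense RNA VPS9D1-AS1 (−5.52, edgeR adjusted p = 5.7e-06; 931 and 21 reads in WT and deficient mock), SPATA33 (−1.97), SPIRE2 (−1.27), the purine salvage enzyme APRT (−1.11), the vesicle tether subunit TRAPPC2L (−0.96) and the replication licensing factor CDT1 (−0.84). VPS9D1, the gene opposite VPS9D1-AS1, had 311 and 320 reads in those libraries and was not called (−0.22, edgeR adjusted p = 0.709), though reads in shared bases cannot be assigned without strand. Over chromosome 16 as a whole, 38 of 444 tested transcripts were called lower and 1 higher, 91.0% lay below 0 and the median was −0.45. Chromosome 7 had 18 of 480 called lower and a median of −0.37, and the medians of the other 21 chromosomes ran from −0.08 to 0.11. Chromosomes 16 and 7 held 56 called-lower transcripts among 924, and the rest held 25 among 9427. When the chromosome 16 genes were put in 10 equal parts by gene order, SPG7 fell in the last, which had the lowest median (−0.78) and 16 of 44 called lower. The counts of that part and of the whole chromosome include SPG7 itself and overlap with the count of its neighbours. What part the position plays in the difference of SPG7 was not tested.

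TRAP1 and DNAJA3 lie together in the third of those parts, with a median of −0.21 and 0 of 45 called lower. TRAP1 was lower in deficient cells at ratios of 0.863 (0.834 to 0.893) in mock and 0.837 (0.809 to 0.867) in GD. Its fitted difference of −0.23 (SE 0.10) was not called (edgeR adjusted p = 0.342), but was called in the genotype set alone (−0.23, edgeR adjusted p = 5.2e-05). For genotype, that fit of 4 libraries called 1942 of 10368 transcripts in either direction. Around TRAP1, 17 of 20 neighbours lay below 0 with a median of −0.26 and none called. DNAJA3 had 107 and 89 reads in WT and deficient mock and 116 and 69 in GD, and its difference of −0.57 (SE 0.27) was not called (edgeR adjusted p = 0.388). Of its 20 neighbours, 16 lay below 0 and the median was −0.22. TRAP1 and DNAJA3 share 12 of these neighbours.

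HTRA2 went the other way. It had 20.7 scaled CPM in WT and 39.3 in deficient mock, and 24.3 in WT and 42.3 in deficient GD, from 264, 527, 271 and 492 reads. Both deficient libraries lay above all 5 WT libraries, whose highest value was 31.1 in stress-set GD. The ratio of deficient to WT was 1.90 (1.64 to 2.21) in mock and 1.74 (1.5 to 2.02) in GD, with a fitted difference of 0.86 (SE 0.16, edgeR adjusted p = 0.0395). The call was lost without genotype-set WT mock (edgeR adjusted p = 0.170), WT GD (0.138), deficient mock (0.573) or deficient GD (0.598), with estimates from 0.80 to 0.93. The authors' deposited table gave HTRA2 a log2 ratio of 0.915 in mock and 0.799 in GD, each from 1 deficient and 1 WT library of the same counts.

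None of the 20 tested genes around HTRA2 was called, 7 lay below 0 and the median was 0.09. HTRA2 overlaps AUP1 and LOXL3, and without a stated use of strand reads in the shared bases cannot be assigned. AUP1, a protein of ER-associated degradation, differed by 0.29 (SE 0.11, edgeR adjusted p = 0.251) and LOXL3 by 0.0048 (SE 0.50). LONP1 overlaps RPL36, HSPA9 the small nucleolar RNAs SNORD63 and SNORD63B, HSPE1 the readthrough gene HSPE1-MOB4 and TRAP1 the gene DNASE1.

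**Figure D4:**
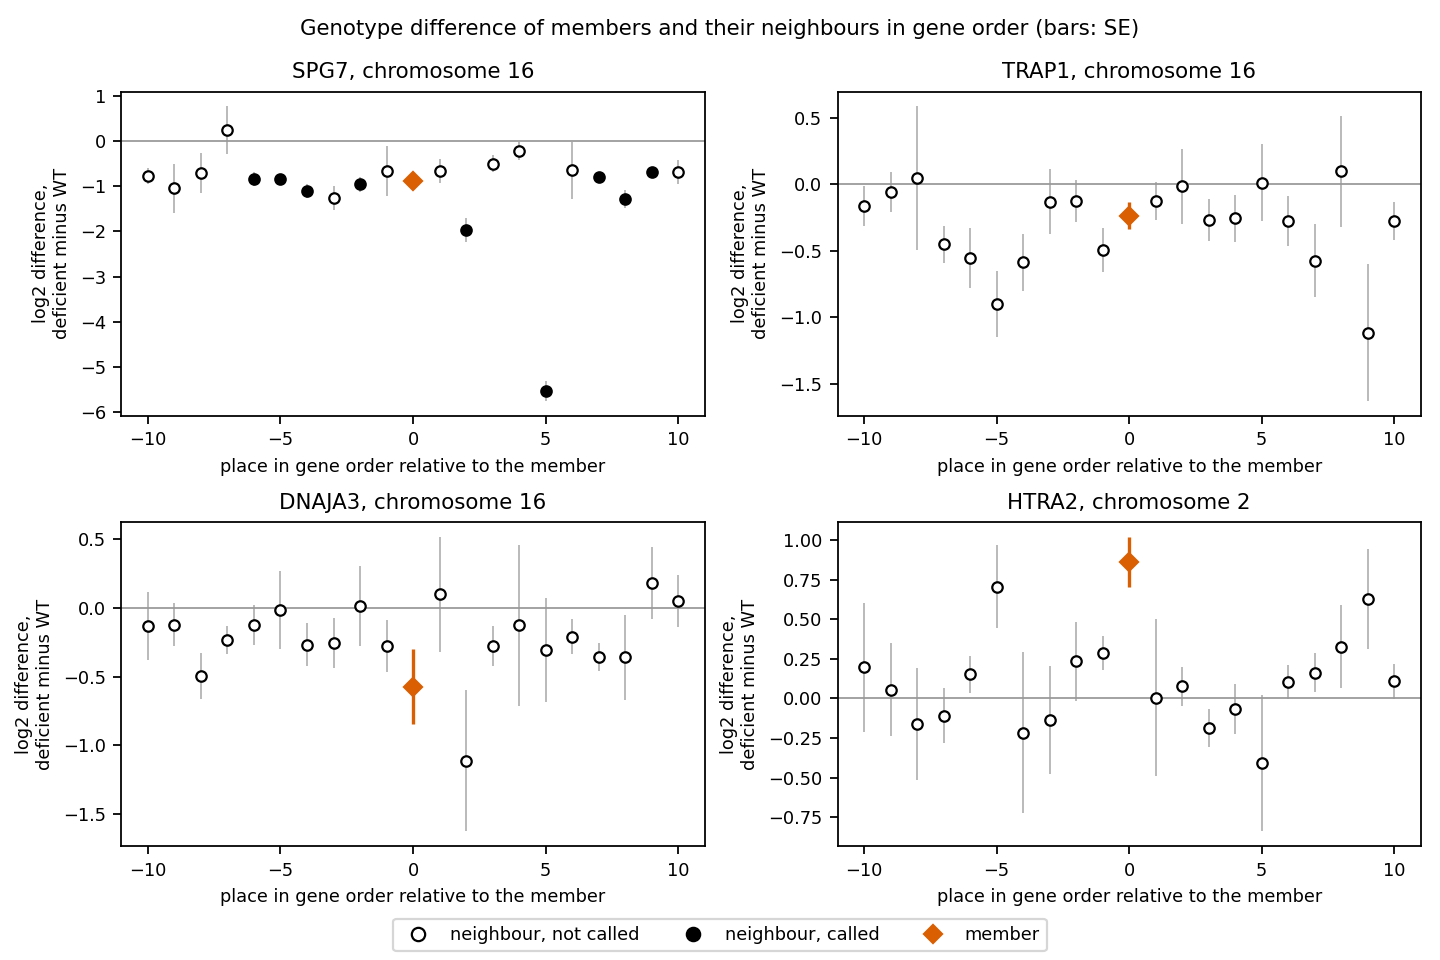
Fitted log2 difference of deficient against WT cells (points, bars are SE) for 4 members and the 10 tested genes on each side of them, against place in gene order. Around SPG7, 19 of 20 neighbours lie below 0 and 9 are called, around TRAP1 and DNAJA3 17 and 16 of 20 lie below 0 with none called, and HTRA2 lies at 0.86 among neighbours with a median of 0.09.

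The remaining members were not called between genotypes. HSPA9 was at ratios of 0.8 (0.775 to 0.825) in mock and 0.764 (0.743 to 0.787) in GD and a fitted −0.35 (SE 0.11, edgeR adjusted p = 0.178). It was called lower in the genotype set alone (−0.35, edgeR adjusted p = 2.0e-12), a fit that called 1942 of 10368 shared transcripts for genotype. The neighbours of HSPA9 on chromosome 5 had a median of 0.18, with 4 of 20 below 0. HSPE1 was at 0.852 and 0.802 with a fitted −0.27 (SE 0.13, edgeR adjusted p = 0.384). The genotype set alone called HSPE1 lower (edgeR adjusted p = 0.0345). A fit of the same libraries over all rows of the genotype table did not call it (edgeR adjusted p = 0.0532), while HSPA9 stayed called (edgeR adjusted p = 4.5e-05). LONP1 was 1.18-fold higher in deficient mock (1.11 to 1.26) and 0.899 times as high in deficient GD (0.852 to 0.949), a fitted 0.06 (SE 0.16). CLPP was at 1.03 in mock and 0.930 in GD, a fitted −0.04 (SE 0.16). In the genotype table alone, where 13.5% of transcripts were called, HSPD1 differed by −0.12 (SE 0.09, edgeR adjusted p = 0.454) and YME1L1 by 0.38 (SE 0.21, edgeR adjusted p = 0.272).

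Lists drawn up for other genes of mitochondrial folding, proteolysis and import were read in the same GD fit. Of 11 tested genes listed as other chaperones and co-chaperones, 1 rose and 3 fell, with a median of 0.04. That list was wider than its name, as it also held the peroxidase PRDX3, the thioredoxin TXN2 and the cytosolic HSP70 HSPA14. The HSPA9 nucleotide exchange factors split: GRPEL2 rose by 0.52 (edgeR adjusted p = 0.0056) and GRPEL1 fell by 0.37 (edgeR adjusted p = 0.0269). DNAJC11, a J-domain protein of the mitochondrial membranes, fell by 0.35 and the peroxidase PRDX3 by 0.32. Of 15 genes listed as other proteases and peptidases, which included the RNA enzymes LACTB2 and OSGEPL1, 2 rose and none fell (median 0.15). These were PMPCB, a subunit of the presequence-cleaving peptidase, at 0.39, and AFG3L2, which forms an inner-membrane protease with SPG7, at 0.37. Of 25 import genes, 3 rose and none fell (median −0.02), namely the small chaperone TIMM9 at 0.76, the sulfhydryl oxidase GFER at 0.50 and the receptor TOMM20 at 0.42. These shares stand beside 9.75% called higher and 11.1% called lower over all transcripts.

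Regulators of the mitochondrial stress response gave 4 rises and no fall among 10 tested, with a median of 0.34, where 9.75% of all transcripts rose and 11.1% fell. DDIT3 rose by 4.14 (edgeR adjusted p = 0.0010; 4 reads in stress-set mock and 217 in GD of that set), CEBPB by 1.89, the kinase PERK gene EIF2AK3 by 0.87 and HSF1 by 0.49. ATF4 (0.14, edgeR adjusted p = 0.611) and ATF5 (−0.48, edgeR adjusted p = 0.315) were not called. In TG, 3 of 8 regulators with enough reads passed the rule of size as higher, where 4.75% of all transcripts did. DDIT3 had 211 reads against 4 in mock, and CEBPB stood at 4.99-fold and EIF2AK3 at 4.32-fold. The list is named for mitochondria, but its genes do not serve mitochondrial stress alone. Whether mitochondrial stress had a part in these rises was not tested.

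Chaperones of other compartments were read beside those of mitochondria. In the ER lumen 11 of 14 genes rose in GD and none fell (median 0.86), with HSPA5 at 2.45, DNAJB9 at 1.65, HSP90B1 at 1.25 and PDIA4 at 1.2, and all 12 with enough reads passed the rule of size in TG (median 2.5). HSPA5 is the ER counterpart of HSPA9 and went from 852.8 scaled CPM in stress-set mock to 8258 in GD and 17140 in TG. HSP90B1, the ER counterpart of TRAP1, had 1568, 6000 and 7755 scaled CPM in the same libraries, where TRAP1 had 451.7, 494.4 and 539.9. Of 13 cytosolic heat shock genes, 7 fell in GD and none rose (median −0.40), with HSPA1B at −2.81, DNAJA1 at −1.32, the HSP70 to HSP90 adaptor STIP1 at −0.78 and HSPB1 at −0.77. In TG 3 of these 13 were lower by the rule of size. Over all transcripts 9.75% rose and 11.1% fell in GD, and by the rule of size 4.75% were higher and 3.36% lower in TG. Between genotypes no gene of these 6 lists was called, where 0.328% of all transcripts were called higher and 0.781% lower. At those shares, no call in lists of this size does not set them apart. The differences between lists were not tested.

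**Figure D5:**
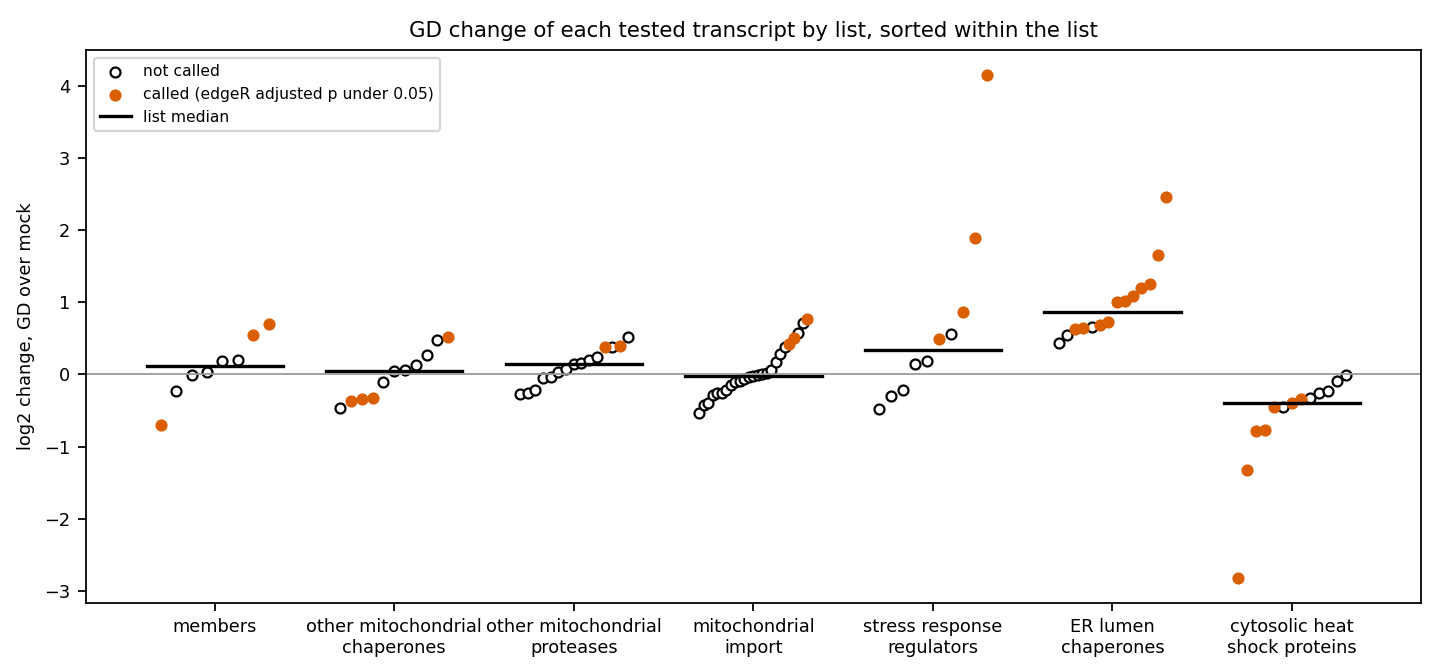
Fitted log2 change in GD of every tested transcript of the members and of 6 gene lists, sorted within each list, with called transcripts filled and the list median as a black line. Members and the lists named for other mitochondrial chaperones, proteases and import spread around 0 with medians from −0.02 to 0.15. Genes listed as stress response regulators have a median of 0.34. ER lumen chaperones lie above 0 (median 0.86) and cytosolic heat shock proteins mostly below 0 (median −0.40).

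Among 6959 transcripts with a mean of at least 10 CPM over the 7 libraries, those with the pattern most like a member were found by the root mean square difference of centred log2 CPM, a description without a test. Nearest to LONP1 were the isoleucyl-tRNA synthetase IARS (0.0955), the glucose transporter SLC2A1 (0.104) and TMEM101 (0.127). IARS had 464, 612 and 812 reads in stress-set mock, GD and TG, and SLC2A1 had 931, 1240 and 1531. Nearest to HSPA9 were ZNF441 (0.0876), the lysosomal sialidase NEU1 (0.0877) and the proton pump subunit ATP6V0A2 (0.0933). Nearest to SPG7 were TRAPPC2L (0.0887), AKR1B1 (0.128) and DUS2 (0.149), of which TRAPPC2L and DUS2 lie on chromosome 16 and AKR1B1 on chromosome 7.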

How the data were processed

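The 7 HEK293T libraries were described from 2 tables in which the authors deposited whole-number read counts for each RefSeq transcript, with no normalization, in 16120 rows for the stress set and 11976 for the genotype set. Per the labels' protocols, RNA was isolated with TRIzol and libraries were prepared with a ribosomal RNA removal kit (TruSeq Ribo Profile). Tools named in the submitters' processing notes are bedtools, Bowtie2, FastQC and cutadapt, with hg19 as the human build. The sources used here give no version, counting rule, annotation or use of strand. The genotype table also holds log2 ratios and p-values that the authors deposited for deficient over WT. Only the log2 ratios are printed, where named as theirs. Members, gene lists and tests were chosen with earlier results of these data known. Named genes were all members, up to 4 called genes of each list by size, up to 6 called neighbours of SPG7 and the 3 nearest patterns of LONP1, HSPA9 and SPG7.

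Groups came from the labels. Tests came from the quasi-likelihood fit of edgeR 4.0.16 (R 4.3.3) to the 10368 transcripts shared by both tables, over the 6 libraries of mock and GD, with terms for set, genotype and treatment, TMM factors and Benjamini-Hochberg adjustment at 0.05. It leaves 2 residual degrees of freedom, and 1 with an interaction. An SE is the log2 estimate divided by the square root of F. No filter removed a shared transcript. HSPD1 and YME1L1 were fitted in the genotype table alone over 11975 transcripts, a choice made after seeing that their transcripts differ. Ratios compare scaled reads with exact conditional 95% intervals for counting error. Transcript lengths came from GENCODE, gene order and promoter windows from RefSeq on GRCh38.p14. The authors' build is hg19, so only the promoter windows carry coordinates. Alternatives were DESeq2 1.42.0, other scalings, filters, terms and libraries left out. On simulated counts of 10368 transcripts, edgeR recovered 91 of 100 changes of 2-fold and 99 of 100 of 4-fold for GD, 78 and 98 for genotype, 21 and 87 for GD by genotype, and 15 and 88 for GD by set. False calls were 14 of 204, 9 of 185, 4 of 112 and 10 of 113 in the same order. All transcripts were simulated at 1 common dispersion with no set effect on level. The real sets differed in level, so these rates may not hold for them.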

Additional observations from a re-analysis of the deposited data

Results flagged for a closer look

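The GD change of LONP1 differed between the sets by a test of the difference itself, with −0.59 on the log2 scale for both genotypes of the genotype set against the stress set (SE 0.14, edgeR adjusted p = 0.0070). Scaled reads rose 2.15-fold in the stress set, and in the genotype set 1.63-fold in WT and 1.24-fold in deficient cells. The deficient pair, which had the lowest ratio, is part of the difference between the sets, and WT cells alone were not tested for it. In WT mock the genotype set stood 1.83-fold above the stress set.

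The GD change of CLPP differed between the sets in the other direction, by 0.64 (SE 0.17, edgeR adjusted p = 0.0191). The ratio was 0.734 in the stress set, and in the genotype set 1.2 in WT and 1.09 in deficient cells. Neither difference was called by DESeq2, and the part of the difference in level between the sets was not tested.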

How the results depend on the processing

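In GD, 2164 transcripts were called (1011 higher, 1153 lower), against 4040 in the genotype set alone, 490 in the 4 WT libraries, 24 without set as a term and 494 to 4039 with 1 library left out. The split was 683 higher and 1526 lower with library totals alone, which moved the median of all transcripts from −0.02 to −0.10, and 1147 and 1058 with RLE size factors. The 3 members called in GD became 0 without set as a term. The CLPP change in GD, −0.0032, turned to 0.019 with RLE, 0.013 with DESeq2, 0.20 in the genotype set alone and 0.10 without set as a term, and ran from −0.15 to 0.20 with 1 library left out. DNAJA3 turned to −0.047 with library totals alone and ran from −0.11 to 0.12 with 1 library left out. Between genotypes the 115 calls became 222 with DESeq2, 1942 in the genotype set alone and 5 to 1938 with 1 library left out, and the 2 members called became 5 in the genotype set alone and 0 to 5. With 1 library left out the genotype difference of CLPP ran from −0.23 to 0.18 and that of LONP1 from −0.25 to 0.34. The 1083 calls for GD by set among 10368 transcripts became 275 with DESeq2, which gave an adjusted p to only 5142. The 2 members called became 0. In TG, 739 transcripts passed the rule of size and 401 with a minimum of 200 reads, and the 1 member past it became 0 with library totals alone. The cause of these shifts was not tested, apart from the smaller number of libraries or transcripts that some settings leave. Of the 318 recomputed values of single members, including those named above, 275 counted as unchanged. For the tests this meant the same direction and side of the threshold, and for TG a value within the main ratio's counting interval. Part of the 275 could not change. The filter removed no shared transcript, so the fits without it repeat the main fits. The minimum of 200 reads leaves the TG ratio of each member as it was. The 275 is therefore not a measure of how stable the values are. Leaving out a deficient library leaves that genotype with 1, which is assumed to vary like the rest. Among the 8 members fitted over both sets DNAJA3 had the fewest reads, 69 to 130 in the mock and GD libraries. The stress-set transcripts of HSPD1 and YME1L1, with 2 to 37 reads, were too shallow to compare.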

Other observations

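The difference in GD response between the sets was also read for the gene lists. Of the 14 ER genes tested, 10 had a smaller GD change in the genotype set and none a larger one, with a median difference of −0.89 on the log2 scale, against 0.01 over all transcripts, of which 584 had a larger and 499 a smaller change among 10368. Of the 15 genes listed as other mitochondrial proteases 2 had a larger change in the genotype set, and of the 25 import genes 3. Of the 11 listed as other mitochondrial chaperones none was called in either direction, with a median of 0.24. Of the 13 cytosolic heat shock genes 3 had a larger and 6 a smaller change, and of the 10 regulators of the mitochondrial stress response 2 a smaller one. The difference between these lists was not tested.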
